A study of Mus musculus with 20 samples.

Results

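Transcripts of 9 ADAMTS proteases, Adamts1, Adamts2, Adamts4, Adamts5, Adamts7, Adamts9, Adamts10, Adamts12 and Adamts15, were followed across 20 RNA-seq libraries of cultured mouse colon fibroblasts. The genes were given as a list of family members, drawn up with earlier results of these data known. All 9 were among the 47729 gene identifiers of the count tables, and all 9 were among the 14820 genes that passed the expression filter. The fibroblasts came from C57BL6/J mice and were grown on plastic in serum-containing medium. Of 5 groups with 4 libraries each, 1 was untreated and carries the label wild-type fibroblasts. The others were kept for 24 h in medium conditioned by tumour organoids. The organoid lines carry the names APTK and APTKA, which the labels do not spell out. In the irradiated APTK and irradiated APTKA groups, the same 2 media belong to an arm given 5 fractions of 2 Gy. The labels leave unsaid whether organoids or fibroblasts received the dose. Neither an irradiated untreated group nor a group given unconditioned organoid medium was analysed here. Libraries are numbered I to IV within a group. Whether they came from separate cultures or animals is not stated, and the spread behind each p-value is that between libraries and may be only technical.

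ADAMTS proteins are secreted zinc metalloproteases with a disintegrin-like module and thrombospondin repeats, and they are made as inactive precursors that proprotein convertases such as furin trim. Fibroblasts use different members for different jobs in the matrix. Some cut the large proteoglycans versican and aggrecan, some remove the amino-terminal propeptide from fibrillar procollagens, some act on cartilage oligomeric matrix protein and related glycoproteins, and some bind fibrillin microfibrils. TIMP-3 is the tissue inhibitor best known for blocking the aggrecan-cutting members.

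Library totals lay between 17.3 and 31.6 M counts. Levels are CPM, read counts scaled to a common library total with the TMM factors of edgeR, and levels of different genes are compared only as CPM per kilobase of merged exon. Fibroblast markers were high in all libraries (summed level of 9 markers 28339 to 62121 CPM). That sum was 55146 to 62121 CPM in untreated libraries and 28339 to 32418 CPM with APTKA medium, where 8 of the 9 markers were lower and Pdpn was higher (log2 0.94 ± 0.11). With APTK medium 4 were higher and 1 was lower. Of 5 leukocyte markers, only Cd68 passed the filter. It lay at 1.04 to 3.35 CPM over all libraries and was higher with APTKA medium than in untreated libraries (log2 0.60 ± 0.25, adjusted p = 0.0372), while Ptprc stayed at or below 0.195 CPM and Cd3e at 0. Of 6 epithelial markers Krt18 and Krt20 passed the filter, both under 1 CPM and called in neither medium, and Epcam stayed at or below 0.105 CPM. Of 5 endothelial markers 4 were tested, with summed levels of 2.43 to 3.44 CPM in untreated, 1.15 to 1.74 CPM in APTK and 1.80 to 2.24 CPM in APTKA libraries. The 6 pericyte and smooth muscle markers summed to 899 to 1114 CPM in untreated and 777 to 864 CPM in APTKA libraries. With APTKA medium 3 of them were lower (Myh11, Mcam and Cspg4) and Des was higher. The part of these lists in the results was not tested. In bulk RNA, fewer cells of a type and less RNA per cell cannot be told apart. In the irradiated APTK group, library II had the most genes far from the other 3 libraries of its group (528, or 3.56% of those tested, against 82 to 343 genes in the other 19 libraries), and library IV (245 such genes) stood apart for Adamts1 and Adamts5. Results that rest on library IV are given with and without it. Leaving out library II changed 3 calls among the 9 genes, those of Adamts5 with APTKA medium against untreated (now called, adjusted p = 0.0473), Adamts4 with APTK medium against untreated (now called, adjusted p = 0.0158) and Adamts1 with irradiated against plain APTK medium (no longer called, adjusted p = 0.152). All comparisons that share a group share its libraries.

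Promoter sequence upstream of the annotated start was given in RefSeq (GRCm38.p6) for 4 of the 9 genes. It is shown for the 3 that hold a core promoter motif in the 250 bases before the start. The transcripts of all 4 fell with APTKA medium, that of Adamts12 without such a motif included. Capitals mark the GC box (GGGCGG, or CCGCCC on the other strand) and the TATA box (TATAAA).
Adamts1 (chr16:85803114-85803363, minus strand): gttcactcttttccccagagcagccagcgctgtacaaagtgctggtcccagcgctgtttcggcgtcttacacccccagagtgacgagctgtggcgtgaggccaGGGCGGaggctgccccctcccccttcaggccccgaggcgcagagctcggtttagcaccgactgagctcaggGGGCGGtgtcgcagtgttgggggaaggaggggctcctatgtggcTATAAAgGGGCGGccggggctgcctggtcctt
Adamts2 (chr11:50601835-50602084, plus strand): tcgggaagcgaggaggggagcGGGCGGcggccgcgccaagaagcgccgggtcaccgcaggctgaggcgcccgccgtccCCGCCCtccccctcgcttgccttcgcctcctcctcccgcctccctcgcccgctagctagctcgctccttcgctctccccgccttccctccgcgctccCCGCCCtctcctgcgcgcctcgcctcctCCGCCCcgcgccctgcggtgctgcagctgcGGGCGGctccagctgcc
Adamts9 (chr6:92943535-92943784, minus strand): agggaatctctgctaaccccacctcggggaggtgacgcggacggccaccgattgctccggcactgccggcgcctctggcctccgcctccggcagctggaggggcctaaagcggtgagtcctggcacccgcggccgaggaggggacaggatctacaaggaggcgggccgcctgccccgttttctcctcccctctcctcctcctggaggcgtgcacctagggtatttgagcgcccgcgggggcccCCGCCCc
The Adamts1 promoter holds 3 GC boxes and a TATA box that begins 32 bases before the start. Adamts2 holds 5 GC boxes and Adamts9 holds 1. A GC box was found in 32.7% of 32851 promoters of the same length, and a TATA box in 12.4%. The upstream windows are rich in G and C, with 65.6% for Adamts1, 78.0% for Adamts2, 71.2% for Adamts9 and 63.2% for Adamts12, whose window holds none of the motifs searched. None of the 4 windows holds, on either strand, the letters searched for AP-1 (TGANTCA, in 6.7% of promoters), the cyclic AMP response element (TGACGTCA, 1.5%), NF-kB (GGANTTTCC, 1.1%), a hypoxia response core (ACGTG, 16.6%) or a CCAAT box (CCAAT, 33.8%). No motif searched contains another. That says only that these letters are not in these windows.

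Per kilobase, Adamts1 was the most abundant of the 9 in untreated fibroblasts at 74.6 ± 5.48 CPM per kb (SD, n = 4), followed by Adamts2 at 50.5 ± 2.06. Adamts12 (20.5 ± 0.446), Adamts10 (18.8 ± 0.0597), Adamts5 (15.9 ± 2.06) and Adamts4 (12.5 ± 0.576 CPM per kb) formed a middle range. Adamts7 stood at 4.61 ± 0.125 CPM per kb, while Adamts9 (0.382 ± 0.0270) and Adamts15 (0.0343 ± 0.0122) were near the lower end of what was measured. The summed level was 198 ± 6.16 CPM per kb in untreated libraries, 162 ± 4.61 for APTK, 151 ± 6.80 for APTKA, 142 ± 20.9 for irradiated APTK and 147 ± 2.74 for irradiated APTKA libraries (SD, n = 4 each). The makeup of this sum differed between media. Adamts1 made up 37.7% ± 1.61 of it in untreated libraries, 24.1% ± 0.675 with APTK medium and 32.03% ± 2.14 with APTKA medium. Adamts5 made up 8.01% ± 0.838, 7.61% ± 0.399 and 15.9% ± 0.918 in the same order. Adamts10 made up 9.49% ± 0.307, 15.7% ± 0.0998 and 6.16% ± 0.421 (SD, n = 4 each). The ranges of the 4 libraries did not overlap between these 3 groups for Adamts1 and Adamts10, and for Adamts5 the APTKA libraries lay above both other groups. These shares are descriptions and were not tested.

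**Figure D1:**
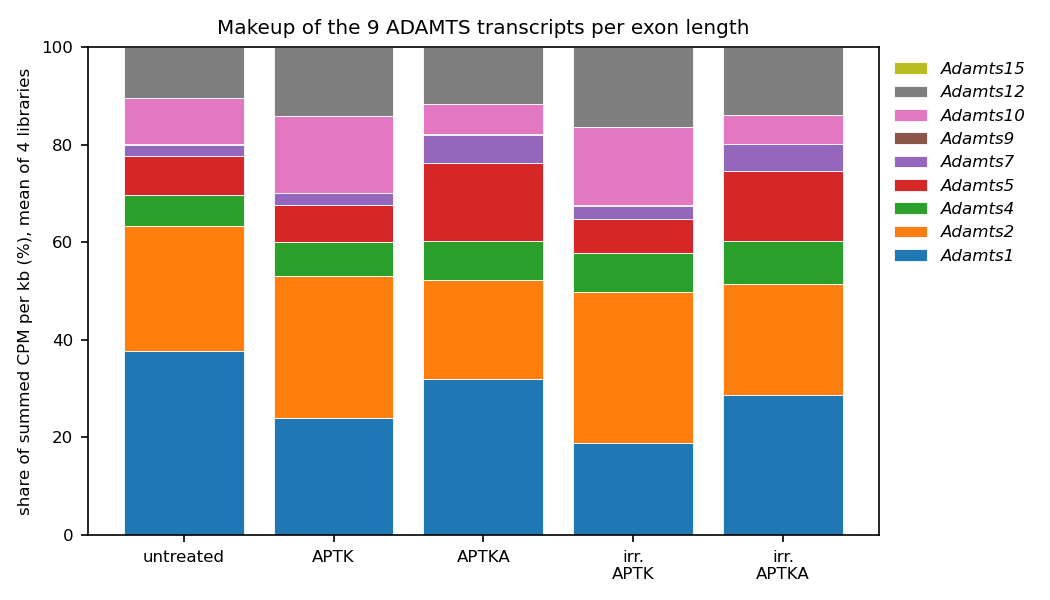
Each bar stacks the mean share of 9 ADAMTS genes in their summed CPM per kb (y axis, percent, mean of 4 libraries) for 1 group (x axis). Adamts1 and Adamts2 hold the 2 lowest segments of each bar, and the Adamts5 segment is 15.9% with APTKA medium against 8.01% in untreated libraries.

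With APTKA medium, 7 of the 9 genes differed from untreated fibroblasts (1 higher, 6 lower), where 61.4% of all genes tested were called (31.5% higher, 29.9% lower). Adamts7 rose. Adamts9, Adamts15, Adamts10, Adamts2, Adamts1 and Adamts12 fell. Adamts15 is counted among these only as a description, because it passed the expression filter through the groups where it was higher. The median log2 difference of the 9 was -0.62, and that of all genes tested was 0.00. Calls here are adjusted p under 0.05 in edgeR's quasi-likelihood test over all genes, and differences are log2 fold changes with their standard error (SE).

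With APTK medium, 5 of the 9 differed from untreated (2 higher, 3 lower), where 43.4% of all genes were called (20.9% higher, 22.5% lower). Adamts10 and Adamts12 rose, and Adamts1, Adamts9 and Adamts7 fell. The median log2 difference was -0.14 against 0.00 for all genes tested. Between the 2 media, 8 of the 9 differed (3 higher and 5 lower with APTKA medium), where 62.9% of all genes were called (31.1% higher, 31.8% lower), and the median was -0.37 against -0.03. Adamts1, Adamts5 and Adamts7 were higher with APTKA medium. Adamts2, Adamts9, Adamts10, Adamts12 and Adamts15 were lower, with Adamts15 again counted only as a description.

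**Figure D2:**
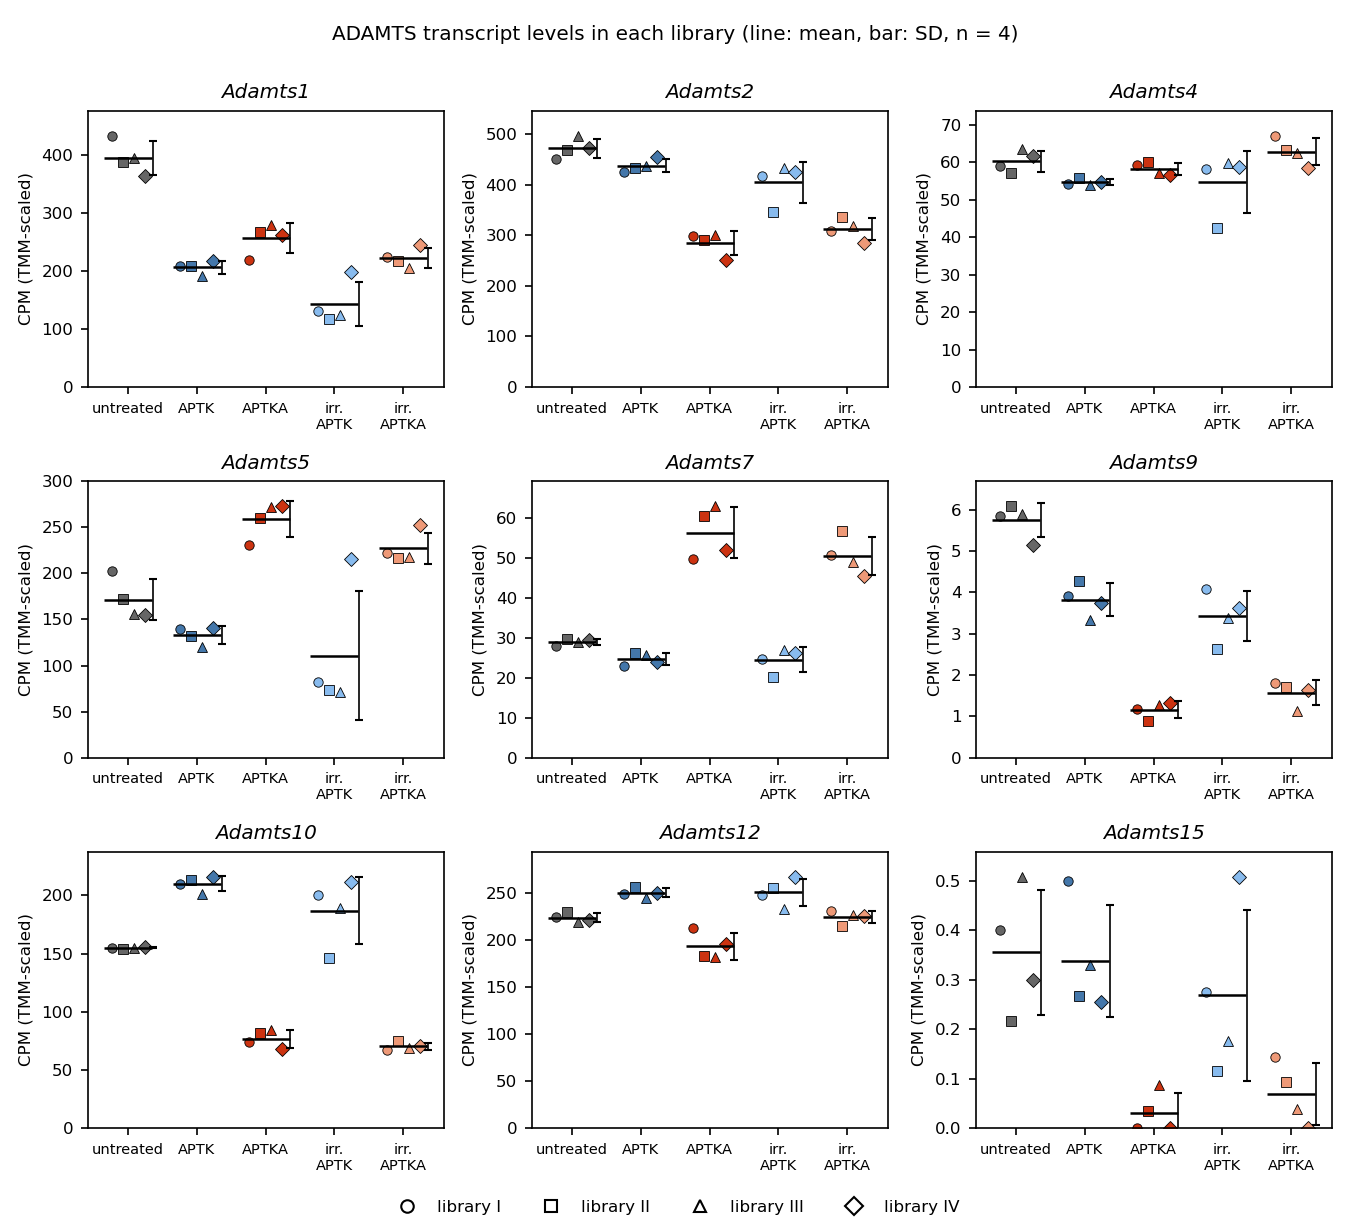
Each panel plots 1 gene, with TMM-scaled CPM on a linear y axis from 0 and the 5 groups on the x axis; points are libraries (the symbol gives the number I to IV), the line is the mean and the bar the SD. The 4 APTKA libraries lie above the untreated and APTK libraries for Adamts7 and below both for Adamts2, Adamts9, Adamts10, Adamts12 and Adamts15, and irradiated APTK library IV lies above its 3 neighbours for Adamts5.

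Among the proteoglycan-cutting members, Adamts1 cleaves versican and aggrecan and is known as an inducible gene of inflamed and ovulating tissue. Its transcript lies at chr16:85793827-85803113 on the minus strand of mm10. The untreated libraries had 434, 388, 396 and 364 CPM, the APTK libraries 209, 209.8, 191 and 218 CPM, and the APTKA libraries 219.6, 267, 279 and 262 CPM. The 3 groups did not overlap. Adamts1 fell with APTK medium (log2 -0.93 ± 0.12 SE, adjusted p = 7.08e-06) and with APTKA medium (log2 -0.62 ± 0.12, adjusted p = 0.000253). Its level with APTKA medium was above that with APTK medium by log2 0.31 ± 0.12 (adjusted p = 0.0361). That last difference missed the threshold with upper quartile scaling (adjusted p = 0.115) and without the expression filter (adjusted p = 0.1002), as well as without any 1 of APTKA II, III or IV or APTK I, II or III.

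Adamts5 is the main aggrecan-cutting protease of cartilage and also cuts versican. It lies at chr16:85856173-85901828 on the same strand as Adamts1, 53.1 kb from it with 1 annotated gene wholly between them. The CPM values were 202, 173, 156 and 154 in untreated libraries, 139, 132, 119.9 and 141 with APTK medium, and 231, 259.8, 272 and 273 with APTKA medium. All APTKA libraries were above all untreated ones, and all APTK libraries were below them. The difference between the media, higher with APTKA by log2 0.96 ± 0.27 SE, passed the test (adjusted p = 0.00533). Against untreated, the log2 differences of 0.60 ± 0.27 with APTKA medium (adjusted p = 0.0633) and -0.36 ± 0.27 with APTK medium (adjusted p = 0.296) did not. The spread behind these tests is shared by all libraries, among them irradiated APTK library IV. Without that library the SE fell to 0.08 and both differences passed, with log2 0.60 (adjusted p = 4.57e-07) and -0.36 (adjusted p = 0.000570). With only the groups compared in the fit, the adjusted p-values were 5.94e-05 and 0.00769. DESeq2 also called the APTKA difference (adjusted p = 0.0463) and not the APTK difference (adjusted p = 0.262).

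Within a library, the ratio of Adamts1 to Adamts5 per kilobase does not depend on the library's scaling. It was 4.37 to 5.17 in untreated libraries, 3.04 to 3.25 with APTK medium and 1.93 to 2.09 with APTKA medium, so the 3 groups did not overlap.

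Adamts4, the other classical aggrecanase, is encoded at chr1:171250421-171260637. Its levels were close together: 59.0, 57.1, 63.4 and 61.5 CPM in untreated libraries, 54.2, 55.8, 54.1 and 54.6 CPM with APTK medium, and 59.2, 59.96, 57.1 and 56.5 CPM with APTKA medium. APTKA libraries overlapped with untreated ones, while APTK libraries lay below all libraries of both groups. The log2 difference was -0.05 with a 95% interval of -0.20 to 0.10 for APTKA medium and -0.14 with an interval of -0.29 to 0.01 for APTK medium, and neither passed the test (adjusted p = 0.558 and 0.116). The APTK difference passed with only the groups compared in the fit (adjusted p = 0.0265).

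Adamts9, a versican- and aggrecan-cutting member that remains largely at the cell surface, is encoded at chr6:92772699-92943492. It had 5.84, 6.08, 5.90 and 5.15 CPM in untreated libraries, 3.92, 4.28, 3.33 and 3.73 CPM with APTK medium, and 1.18, 0.876, 1.26 and 1.33 CPM with APTKA medium. The groups formed 3 separate levels. Adamts9 fell with APTK medium (log2 -0.59 ± 0.13, adjusted p = 0.000719) and with APTKA medium (log2 -2.31 ± 0.16, adjusted p = 6.91e-13), the latter a 4.95-fold lower level. It was also lower with APTKA than with APTK medium (log2 -1.72 ± 0.16, adjusted p = 6.03e-10). Of its exon bases, 1381 are shared with A730049H05Rik and 424 with Gm15737 on the opposite strand, and since the strand setting of the counting is not given, reads there cannot be assigned.

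Adamts15, another versican- and aggrecan-cutting member, was close to the detection limit. The libraries held 10, 5, 13 and 8 counts in the untreated group, 13, 7, 9 and 6 counts with APTK medium, and 0, 1, 2 and 0 counts with APTKA medium. The total of 36 counts in untreated against 3 counts with APTKA medium gave a ratio of 12.7 of scaled rates, with an exact 95% counting interval of 4.02 to 64.6. Against the 35 counts with APTK medium the ratio was 12.1 (3.81 to 61.4). The intervals cover counting error only. Both differences passed the test (adjusted p = 0.000122 and 0.000172), while APTK medium and untreated overlapped (log2 -0.07 ± 0.43, adjusted p = 0.908). Adamts15 passed the expression filter only through untreated, APTK and irradiated APTK libraries, where it was higher. No library with plain or irradiated APTKA medium reached the level of the filter. The filter thus favoured such differences, and the Adamts15 calls are given as descriptions. With only the groups compared, Adamts15 failed the filter.

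Adamts2 removes the amino-terminal propeptide of type I and III procollagen. It is encoded at chr11:50602084-50807573. The untreated libraries had 449.8, 468, 497 and 472 CPM, the APTK libraries 424, 433, 437 and 455 CPM, and the APTKA libraries 299, 291, 299.6 and 251 CPM. APTKA libraries were below all others, and the APTK libraries overlapped with untreated. Adamts2 fell with APTKA medium, by 1.66-fold against untreated (log2 -0.73 ± 0.07, adjusted p = 2.94e-10) and by 1.53-fold against APTK medium (log2 -0.62 ± 0.07, adjusted p = 6.61e-09). With APTK medium the log2 difference of -0.11 ± 0.07 did not pass (adjusted p = 0.190).

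Of 5 procollagen genes tested, 4 fell with APTKA medium, where 29.9% of all genes tested fell, and Col2a1 did not pass (log2 0.12 ± 0.55). Col3a1 had 26346 ± 1054 CPM in untreated libraries and 12649.6 ± 1083 CPM with APTKA medium (log2 -1.06 ± 0.09), Col5a1 changed by log2 -1.005 ± 0.08, and Col1a2 by log2 -0.87 ± 0.07. With APTK medium 2 of the 5 fell, where 22.5% of all genes fell, Col3a1 (log2 -0.53 ± 0.09) and Col5a1 (log2 -0.40 ± 0.08). These collagens overlap with the fibroblast markers given above. Col3a1 shares exon bases with an annotated miRNA gene and Col5a1 with 2 transcripts on the opposite strand.

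A different pattern was seen for Adamts14, another procollagen N-proteinase, which was singled out after its values were seen. It rose with APTKA medium from 52.9 ± 5.21 to 115 ± 6.28 CPM (SD, n = 4, log2 1.11 ± 0.10, adjusted p = 3.86e-09) and fell with APTK medium to 39.6 ± 1.45 CPM (log2 -0.42 ± 0.10, adjusted p = 0.00256). Per kilobase, the ratio of Adamts14 to Adamts2 within a library was 0.187 to 0.227 in untreated libraries, 0.159 to 0.168 with APTK medium and 0.704 to 0.755 with APTKA medium. Adamts2 remained the more abundant of the pair in all of these libraries. Adamts3, from the same list as Adamts14, did not share that pattern. It rose with APTK medium (log2 0.77 ± 0.20, adjusted p = 0.00275) and did not pass with APTKA medium (log2 -0.36 ± 0.23, adjusted p = 0.174). With APTKA against APTK medium Adamts3 was lower (log2 -1.13 ± 0.21) and Adamts14 higher (log2 1.53 ± 0.10).

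Adamts7 and Adamts12 form a closely related pair that carries a mucin-like stretch and is known for cutting cartilage oligomeric matrix protein. They moved in opposite directions with APTKA medium. Adamts7, at chr9:90163069-90208071, had 27.9, 29.6, 28.98 and 29.5 CPM in untreated libraries, 22.9, 26.2, 25.7 and 23.8 CPM with APTK medium, and 49.6, 60.4, 62.8 and 51.96 CPM with APTKA medium. APTKA libraries were above all others, and APTK libraries were below untreated ones. Adamts7 rose 1.94-fold with APTKA medium (log2 0.95 ± 0.08, adjusted p = 1.23e-10) and was 2.27-fold above its level with APTK medium (log2 1.19 ± 0.08, adjusted p = 2.27e-12). Its fall with APTK medium was small (log2 -0.23 ± 0.09, adjusted p = 0.0317) and did not pass with upper quartile scaling (adjusted p = 0.0840) or without any 1 of untreated II, III or IV or APTK I or IV. Adamts7 shares 122 exon bases with Tbc1d2b on the opposite strand.

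Adamts12, at chr15:11064790-11349231, had 225, 230.0, 219 and 221 CPM in untreated libraries, 249, 256, 245 and 249.6 CPM with APTK medium, and 212, 183, 182 and 195 CPM with APTKA medium. The 3 groups did not overlap although the differences were small. Adamts12 rose with APTK medium (log2 0.16 ± 0.05, adjusted p = 0.0129) and fell with APTKA medium (log2 -0.21 ± 0.05, adjusted p = 0.000756). Between the media the log2 difference was -0.37 ± 0.05 (adjusted p = 4.48e-07). Comp itself, the shared substrate, did not pass the expression filter and reached at most 0.411 CPM in any library.

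Adamts10 binds fibrillin microfibrils, and its loss causes a syndrome of short stature and lens displacement in people. It is encoded at chr17:33524204-33553782. The untreated libraries had 155, 154, 155 and 155 CPM, the APTK libraries 209.6, 213, 201 and 216 CPM, and the APTKA libraries 73.8, 82.0, 84.2 and 67.6 CPM. The 3 groups were far apart and the media lay on opposite sides of the untreated level. Adamts10 rose with APTK medium (log2 0.44 ± 0.08, adjusted p = 5.71e-05) and fell with APTKA medium (log2 -1.01 ± 0.08, adjusted p = 3.91e-11). The 2.73-fold gap between the media (log2 -1.45 ± 0.08, adjusted p = 5.11e-14) was the largest in that comparison after those of Adamts15 and Adamts9. The fibrillin gene Fbn1 fell with both media (log2 -0.58 ± 0.08 with APTK, log2 -0.97 ± 0.08 with APTKA medium), and Fbn2 fell with APTK medium (log2 -1.43 ± 0.20). Fbn1 and Fbn2 share exon bases with predicted genes on the opposite strand.

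**Figure D3:**
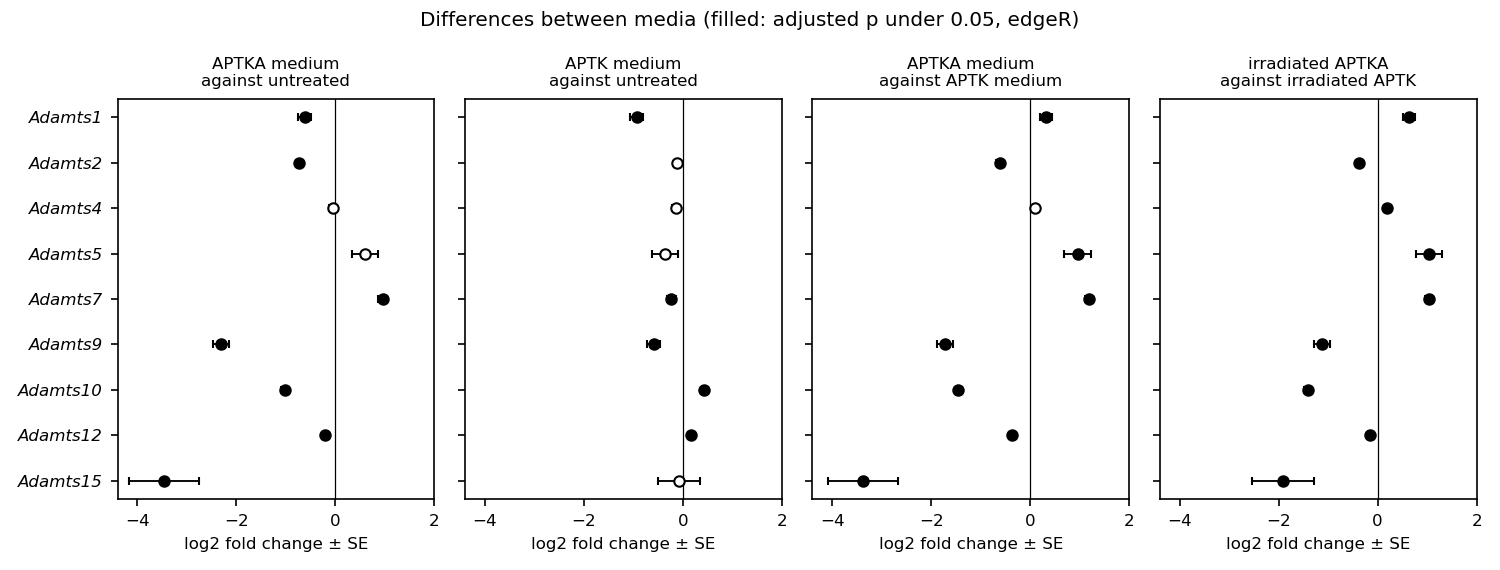
Points are log2 fold changes (x axis, bars are the SE) of the 9 genes (y axis) in 4 comparisons of media, filled where the adjusted p is under 0.05. Adamts7 and Adamts10 lie on opposite sides of 0 in all 4 panels, and Adamts4 lies within 0.2 of 0 in each.

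The irradiated APTKA medium was compared with plain APTKA medium. Of the 9 genes, 1 was higher and 0 were lower, where 0.729% of all genes were called (0.452% higher, 0.277% lower). The median log2 difference was 0.11 against 0.00 for all genes tested. Adamts12 rose, from 212, 183, 182 and 195 CPM to 231, 215, 226 and 225 CPM (log2 0.22 ± 0.05, adjusted p = 0.0417). Its groups did not overlap. The call did not hold with upper quartile scaling (adjusted p = 0.0678) or without any 1 of 6 of the 8 libraries compared (all but APTKA I and irradiated APTKA II), with log2 values from 0.19 to 0.27. For Adamts9 the libraries had 1.80, 1.70, 1.12 and 1.65 CPM with irradiated APTKA medium, against 0.876 to 1.33 CPM with plain medium (log2 0.45 ± 0.18, adjusted p = 0.284).

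With irradiated against plain APTK medium, 0 of the 9 were higher and 1 was lower, where 1.38% of all genes were called (0.547% higher, 0.837% lower). The median was -0.15 against 0.00. Adamts1 fell from 209, 209.8, 191 and 218 CPM to 132, 118, 124 and 199 CPM (log2 -0.53 ± 0.13, adjusted p = 0.0445). The groups overlapped through library IV. This call was lost with upper quartile scaling (adjusted p = 0.0508), without the expression filter (adjusted p = 0.0715), with only the groups compared (adjusted p = 0.265) and without any 1 of the other 7 libraries compared. Without library IV the fall was larger and passed (log2 -0.73 ± 0.07, adjusted p = 3.85e-07).

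Adamts5 had 82.1, 73.2, 71.6 and 215 CPM with irradiated APTK medium, against 119.9 to 141 CPM with plain medium. Libraries I to III were below all plain APTK libraries and library IV was above them. Over all libraries the difference did not pass (log2 -0.26 ± 0.27, adjusted p = 0.709). Without library IV, Adamts5 was lower by log2 -0.82 ± 0.09 (adjusted p = 2.16e-06), with 75.6 ± 5.64 CPM (SD, n = 3). In that fit 2 of the 9 genes, Adamts1 and Adamts5, were called, and 8.45% of all genes were called.

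Library IV did not stand apart for each member of the family. The 10418 genes with a mean log2 CPM of at least 2 were ranked by how far library IV exceeded the mean of libraries I to III. Adamts5 was number 8 (log2 excess 1.51) and Adamts1 number 92 (0.68), while the excess of Adamts2, Adamts4, Adamts7, Adamts10 and Adamts12 was 0.10 to 0.26. Adamts9 and Adamts15 were too low to be ranked. Adamts15 was highest in library IV, with 13 counts against 5, 2 and 5 counts in libraries I to III. Adamts9 had 3.63 CPM in library IV against 4.07, 2.64 and 3.37 CPM. The top of that order held Lars2 (log2 excess 4.20), CT010467.1 (4.31) and the genes Gm15564, Mir6236 and Gm23935. Its total of 26.3 M counts and mitochondrial share of 1.01% lay within the range of libraries I to III, which was 17.3 to 29.2 M counts and 0.534 to 1.23%. The ratio of Adamts1 to Adamts5 per kilobase was 1.89 in library IV and 3.28, 3.29 and 3.52 in libraries I to III. The part of these library features in the Adamts5 value was not tested.

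**Figure D4:**
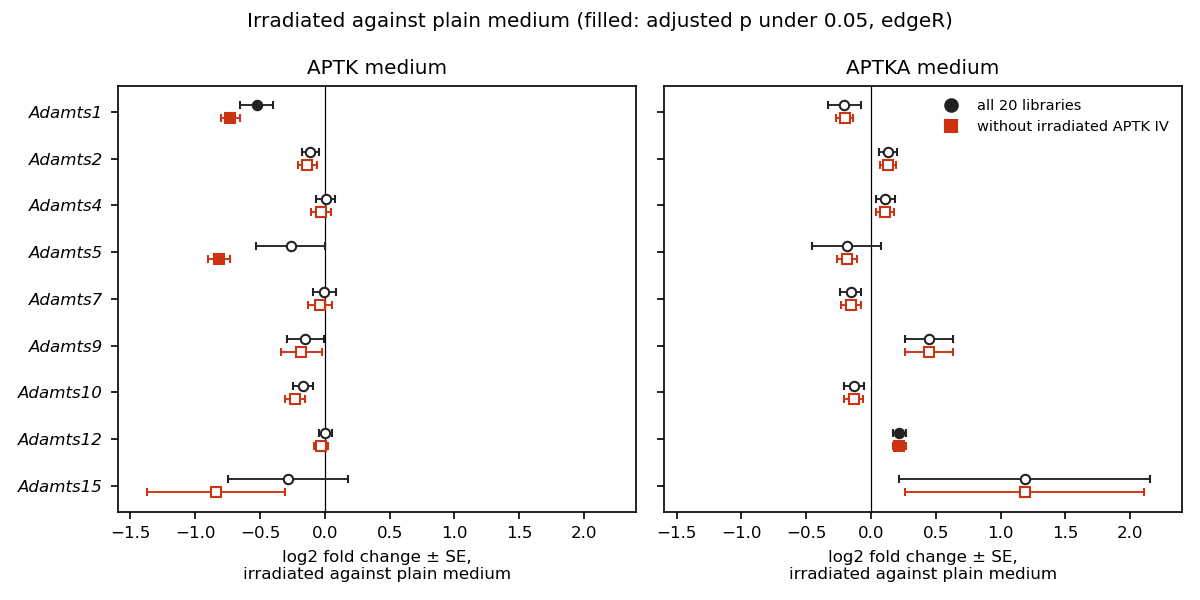
Points are log2 fold changes of irradiated against plain medium (x axis, bars are the SE) for the 9 genes (y axis) in APTK medium (left) and APTKA medium (right), over all libraries (black circles) and without irradiated APTK library IV (red squares), filled where the adjusted p is under 0.05. In APTK medium the Adamts5 value moves from -0.26 to -0.82 without that library and its SE from 0.27 to 0.09.

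The difference of the irradiation effects between the media was tested directly. None of the 9 passed in edgeR, where 0.182% of all genes were called (0.121% higher, 0.0607% lower). At an unadjusted p under 0.05 there were 3, Adamts2 (log2 difference 0.24 ± 0.09), Adamts9 (0.60 ± 0.23) and Adamts12 (0.21 ± 0.07), and 9.02% of all genes passed that unadjusted threshold. Each positive value means a more positive irradiation effect in APTKA than in APTK medium, not a higher level there. DESeq2 called 0 of 8 at an adjusted p under 0.05 and gave no adjusted p for Adamts15. Without irradiated APTK library IV, Adamts1 (0.53 ± 0.10) and Adamts5 (0.63 ± 0.12) passed, both at an adjusted p of 0.00322, where 2.04% of all genes were called. Leaving out any other library of the 4 groups made no such call.

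Between the 2 irradiated media, all 9 genes differed (4 higher and 5 lower with irradiated APTKA), where 61.3% of all genes were called (30.1% higher, 31.2% lower). The median log2 difference was -0.16 against -0.03 for all genes tested. Adamts7 (log2 1.04 ± 0.09), Adamts5 (1.03 ± 0.27), Adamts1 (0.64 ± 0.13) and Adamts4 (0.19 ± 0.07) were higher with irradiated APTKA medium. Adamts15 (-1.91 ± 0.63), Adamts10 (-1.41 ± 0.08), Adamts9 (-1.12 ± 0.16), Adamts2 (-0.37 ± 0.07) and Adamts12 (-0.16 ± 0.05) were lower. Each of the 8 genes called between the plain media had the same sign here. No library is shared by the 2 comparisons, but both came from 1 fit with a shared estimate of the spread. The share of all genes that kept their sign was not computed, so the agreement is not a result about these genes. The libraries overlapped for Adamts4 and for Adamts15. The Adamts4 call was lost with upper quartile scaling (adjusted p = 0.146), with only the groups compared (adjusted p = 0.104) and without irradiated APTKA I. The Adamts12 call was lost without the expression filter (adjusted p = 0.118). The Adamts5 call was lost with only the groups compared (adjusted p = 0.0645), while without irradiated APTK library IV its difference was log2 1.59 ± 0.09 (adjusted p = 4.08e-13). Adamts15, with 8 counts against 25 counts, is counted here only as a description. It was no longer called without that library (log2 -1.35 ± 0.70, adjusted p = 0.102).

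The group levels of each gene can be put in order. For Adamts1 the order was untreated, APTKA, irradiated APTKA, APTK and irradiated APTK, and each neighbouring pair after the first overlapped. The Adamts5 order was APTKA, irradiated APTKA, untreated, APTK and irradiated APTK, where APTKA and irradiated APTKA overlapped, as did APTK and irradiated APTK through library IV. For Adamts10 it was APTK, irradiated APTK, untreated, APTKA and irradiated APTKA, with overlap between each plain medium and its irradiated counterpart and between irradiated APTK and untreated, through library II at 147 CPM. For Adamts7 and Adamts9 the APTKA groups lay at one end, with no library overlapping the untreated or APTK groups.

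Regulators and partners of the family were taken from fixed lists, whose counts stand against 31.5% of all genes higher and 29.9% lower with APTKA medium, and 20.9% higher and 22.5% lower with APTK medium. Timp3, the inhibitor of the aggrecan-cutting members, fell from 384 ± 30.7 CPM in untreated libraries to 133 ± 4.69 with APTK medium (log2 -1.52 ± 0.06, adjusted p = 5.41e-17) and to 53.0 ± 1.05 CPM with APTKA medium (log2 -2.86 ± 0.06, adjusted p = 6.96e-24). It rose with irradiated against plain APTKA medium, to 67.9 ± 4.14 CPM (log2 0.36 ± 0.06, adjusted p = 0.00162). Timp3 shares 1733 exon bases with Syn3 on the opposite strand. Within a library, the ratio of Adamts5 to Timp3 per kilobase was 0.316 to 0.365 in untreated libraries, 0.682 to 0.826 with APTK medium and 3.31 to 3.88 with APTKA medium. It was 2.30 to 2.88 with irradiated APTKA medium and 0.423 to 0.437 in irradiated APTK libraries I to III, against 1.15 in library IV. For Adamts4 the same ratio was 0.239 to 0.300 in untreated libraries, 0.667 to 0.720 with APTK medium and 1.78 to 1.96 with APTKA medium. The other inhibitors went separate ways, as Timp1 rose with APTKA medium (log2 0.96 ± 0.07) and Timp2 fell (log2 -0.76 ± 0.06). Of the 4 genes tested in this list, 1 rose and 3 fell with APTKA medium, and 0 rose and 2 fell with APTK medium.

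Among 8 genes for precursor processing, glycosylation and cofactors, 3 rose and 5 fell with APTKA medium, and 3 rose and 3 fell with APTK medium. The convertase genes differed among themselves. Pcsk5 fell with both media (log2 -3.22 ± 0.19 with APTKA, -1.94 ± 0.17 with APTK medium), as did Pcsk6 (-1.70 ± 0.08 and -0.35 ± 0.08), while Furin rose with APTKA medium (0.53 ± 0.09). B3glct, which adds glucose to the fucosylated thrombospondin repeats, fell from 57.4 ± 1.44 CPM to 38.0 ± 1.35 with APTK medium (log2 -0.59 ± 0.06) and 19.5 ± 0.937 CPM with APTKA medium (log2 -1.55 ± 0.06). Furin and Pcsk6 share exon bases with predicted genes.

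The proteoglycan and matrix substrates were 10 genes, of which 6 were tested. With APTKA medium 1 rose and 2 fell, and with APTK medium 2 rose and 3 fell. Vcan, encoding versican, had 140.1 ± 14.5 CPM in untreated libraries and 139.9 ± 4.27 CPM with APTKA medium (log2 0.00 ± 0.08, adjusted p = 0.983), and fell to 87.5 ± 3.19 CPM with APTK medium (log2 -0.68 ± 0.08, adjusted p = 2.55e-07). Acan, encoding aggrecan, did not pass the filter, with 27 counts in all 20 libraries together. Bcan, at 1.13 ± 0.558 CPM in untreated libraries, rose with APTK medium (log2 1.01 ± 0.25) and fell with APTKA medium (log2 -0.92 ± 0.31).

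Of the 10 ADAMTS genes outside the list of 9, 7 were tested. With APTKA medium 1 rose and 3 fell, and with APTK medium 1 rose and 6 fell. Adamts16 fell from 6.35 ± 1.01 to 2.31 ± 0.477 CPM with APTK medium and 0.625 ± 0.122 CPM with APTKA medium (log2 -1.45 ± 0.21 and -3.34 ± 0.26). Adamts17 fell with both (log2 -1.13 ± 0.40 and -1.57 ± 0.42) at group means under 1 CPM, and its APTK libraries overlapped with untreated ones. Adamts8, the chromosomal neighbour of Adamts15 at a gap of 20.1 kb, had 0.246 ± 0.0547 CPM in untreated libraries, fell with APTK medium (log2 -1.46 ± 0.60) and did not pass with APTKA medium (log2 0.27 ± 0.46). Its fall rests on 9 counts with APTK medium against 25 counts in untreated libraries, and was near the threshold (adjusted p = 0.0493). Adamts8 shares exon bases with a gene on the opposite strand. Adamts13, Adamts18 and Adamts19 did not pass the expression filter and reached at most 0.0863 CPM in any library.

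ADAMTS-like proteins carry the thrombospondin repeats without the protease domain. Of 4 genes tested, 1 rose and 2 fell with APTKA medium, and 1 rose and 3 fell with APTK medium. Adamtsl1 fell from 40.8 ± 2.81 to 28.2 ± 2.09 CPM with APTK medium and 11.0 ± 1.02 CPM with APTKA medium (log2 -0.53 ± 0.11 and -1.89 ± 0.12). Adamtsl4, a fibrillin-binding member, rose with APTKA medium (log2 0.66 ± 0.14) and fell with APTK medium (log2 -0.50 ± 0.16). Thsd4 rose with APTK medium (log2 0.61 ± 0.22), and with APTKA medium its log2 difference was -0.16 ± 0.23.

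**Figure D5:**
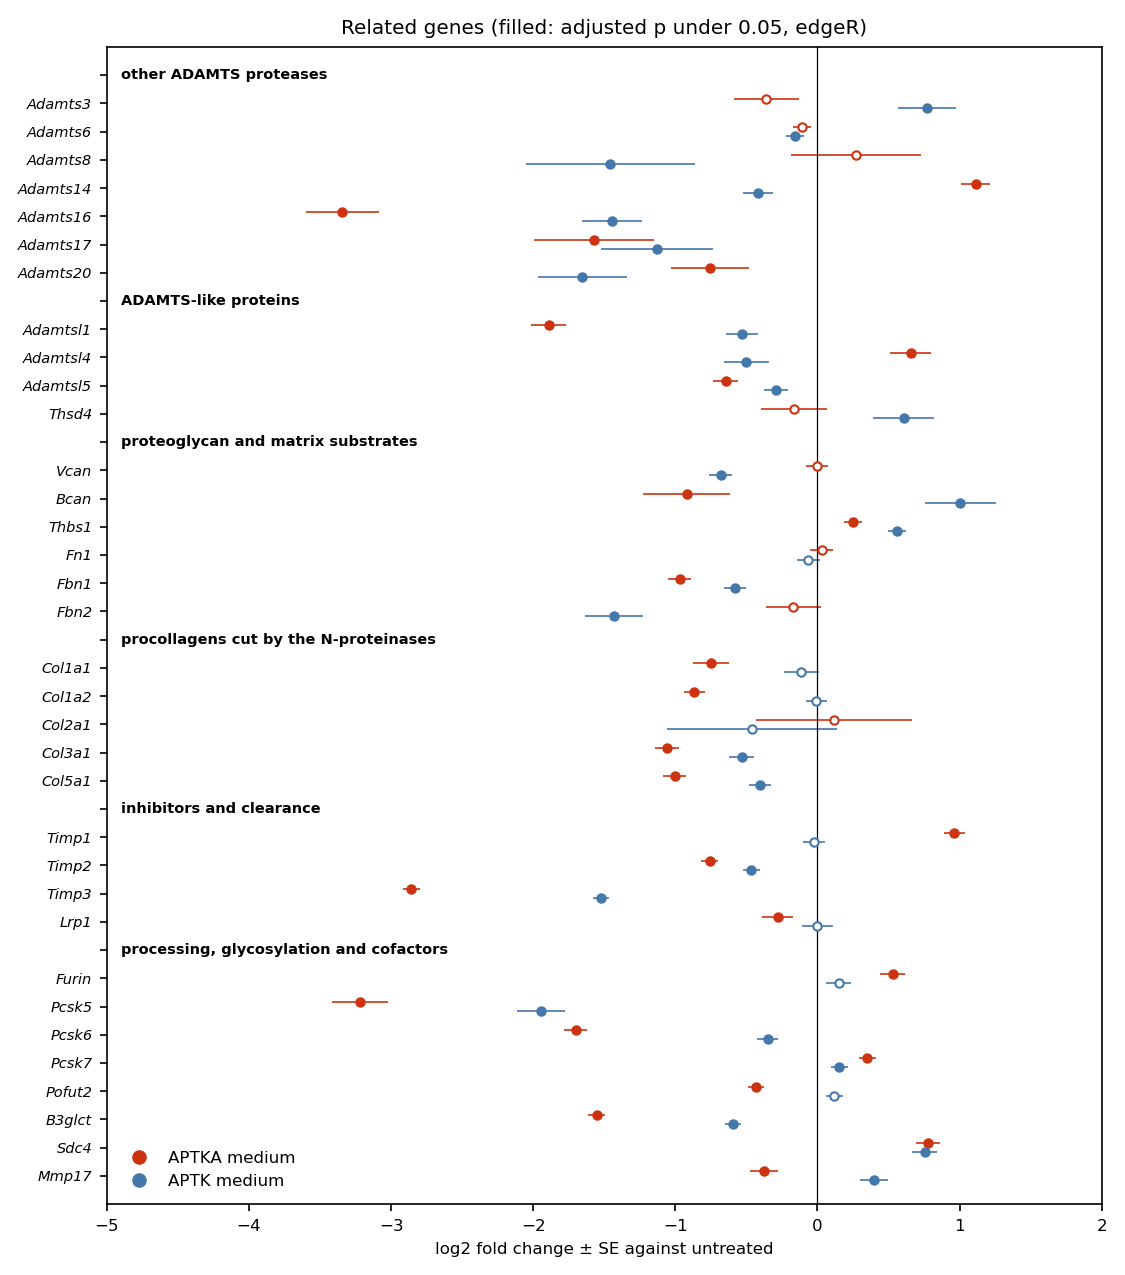
Points are log2 fold changes against untreated (x axis, bars are the SE) for the tested genes of 6 lists of related genes (y axis), with APTKA medium in red and APTK medium in blue, filled where the adjusted p is under 0.05. Timp3 and Pcsk5 lie left of 0 for both media, and Adamts14 lies right of 0 for APTKA and left of 0 for APTK medium.

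The genes whose pattern over the 20 libraries was most like each member were found by Pearson's r of log2 CPM. The search covered tested genes with a mean log2 CPM of at least 2 and left out predicted or unnamed genes. That gave 10110 candidates, or 10111 for Adamts9 and Adamts15. The points share the 5 group means, so high values are common and are given as descriptions. Adamts10 was most like Tle2 (r = 0.993), Adamts7 most like Zbtb40 (0.978), Adamts2 most like Naglu (0.978) and Adamts9 most like Dag1 (0.976). Adamts5 was most like Cdc42ep3 (0.949), Adamts1 most like Osr1 (0.936), Adamts15 most like Notch2 (0.920), Adamts4 most like Lfng (0.917) and Adamts12 most like Mettl27 (0.917). Within the family the highest r were those of Adamts2 with Adamts9 (0.933), Adamts2 with Adamts15 (0.899) and Adamts2 with Adamts10 (0.878), and the lowest was that of Adamts7 with Adamts10 (-0.918). The chromosomal neighbours Adamts1 and Adamts5 had an r of 0.613.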

How the data were processed

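Polyadenylated RNA was sequenced in 20 libraries. The authors deposited unscaled whole-number counts of reads for each Ensembl gene. Per the submitters' processing notes, bcl2fastq 2.20.0.422 and STAR 2.5.2a were used with the build mm10, and counting tools include featureCounts 1.5.0-p1. Strand setting, annotation release and handling of multiply matching reads were not given in the sources used here. Symbols, exon lengths and gene coordinates came from GENCODE M21, which held 47310 of the 47729 identifiers.

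Counts were fitted in R 4.3.3 with edgeR 4.0.16: TMM scaling, default expression filter, robust quasi-likelihood test and 5 group means over all 20 libraries. P-values were adjusted (Benjamini and Hochberg) over all 14820 genes tested, separately in 7 comparisons. SE is the size of the log2 fold change divided by the root of F. The code was tested on simulated data. Replicate libraries differed by more than counting noise (chi-square over its degrees of freedom 4.61 to 83.4). The alternatives were other scalings, no filter, DESeq2 1.42.0, only the groups compared, a replicate block and leaving out each library. Leaving out libraries outside the groups compared, and edgeR without its robust option, were chosen after seeing the data.

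The members and lists were chosen with earlier results of these data known. Named were all 9 members, the gene most like each (Pearson's r of log2 CPM with a prior count of 2) and up to 3 called genes of each list of related genes. Adamts14, Adamts3, Vcan, Furin and the untested Acan, Comp and other ADAMTS genes were named after their values were seen. Some overlaps of members with other genes are not reported here.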

Additional observations from a re-analysis of the deposited data

Results flagged for a closer look

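In 5 of 45 sets of 4 libraries (9 genes in 5 groups), 1 library lay far from the other 3 by Dixon's criterion (the gap to the nearest library over the range of the 4), which chance alone gives in about 1 of 20 sets. With irradiated APTK medium, library IV was high for Adamts5 (215 CPM, others 71.6 to 82.1) and Adamts1 (199 CPM, others 118 to 132). In the same group, library II was low for Adamts2 (345 CPM, others 417 to 432) and Adamts4 (42.4 CPM, others 58.3 to 59.7). Library II also had the fewest counts of all 20 libraries (17.3 M) and a mitochondrial share of 1.23%, and their part in its values was not tested. With irradiated APTKA medium, library IV was high for Adamts5 (252 CPM, others 217 to 222), and it stood apart for 1.34% of all genes tested.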

How the results depend on the processing

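Of 1694 values of the 63 gene results under the alternatives, 1607 kept their direction and their side of the threshold. Of 31 called results, 24 kept their call in each alternative that leaves in all libraries and gave a value. The called Adamts15 results are among these 24, although they are given as descriptions and gave no value with only the groups compared. The number of genes called for irradiated against plain APTKA medium went from 1 to 0 with upper quartile scaling, and that for irradiated against plain APTK medium from 1 to 0 with upper quartile scaling, without the filter and with only the groups compared. Leaving out 1 library gave 0 to 1 for the first and 0 to 2 for the second and for the difference of irradiation effects, where 2 came from leaving out irradiated APTK IV. The Adamts1 call in irradiated APTK medium was also lost without any 1 library outside the groups compared other than APTKA I, and the Adamts12 call in irradiated APTKA medium without untreated III or any 1 APTK library. Adamts5 with APTKA medium against untreated was also called without irradiated APTK II (adjusted p = 0.0473) or III (adjusted p = 0.0477) and without the robust option (adjusted p = 0.0186), and Adamts4 with APTK medium without irradiated APTK II. The cause was not tested. Reversed signs belonged to uncalled values near 0. For irradiated against plain APTK medium, Adamts4 had -0.011 with upper quartile scaling and -0.0057 without the filter, and Adamts12 had -0.013 and -0.0090. Leaving out 1 library gave log2 -0.32 to 0.14 for Adamts15 with APTK medium against untreated. In irradiated against plain APTK medium it gave -0.056 to 0.067 for Adamts7, -0.038 to 0.10 for Adamts4 and -0.028 to 0.038 for Adamts12. For the difference of irradiation effects it gave -0.089 to 0.63 for Adamts5 and -0.055 to 0.10 for Adamts10.

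Over all genes, the calls for irradiated against plain APTKA medium were 108 (67 higher, 41 lower), 47 higher and 47 lower with upper quartile scaling, 316 without the filter, 307 with DESeq2 and 512 with only the groups compared. For irradiated against plain APTK medium they were 205, against 492 without the filter, 439 with DESeq2, 10 with only the groups compared and 1271 without irradiated APTK IV. For the difference of effects they were 27, against 209 without the filter, 114 with DESeq2 and 307 without irradiated APTK IV. Replicate numbers did not pair the libraries (correlations of same-numbered deviations -0.108 to 0.096 over 40 pairs). With the replicate block, 82 and 178 genes were called for irradiated APTKA and APTK medium, and the number of members called was the same in all 7 comparisons. Adamts15 gave no value with only the groups compared, as it then failed the expression filter. Depth limits Adamts15 (0 to 13 counts per library).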
